A study of Mus musculus with 7 samples.

Results

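The set of HIF-2-associated target genes comprised Flt1, Plin2, Mmp14, Ccnd1 and Pgf, which are 5 of the 32285 genes counted. The members were picked by name, as genes tied to the transcription factor HIF-2, and each symbol matched 1 row of the feature table (ENSMUSG00000029648, ENSMUSG00000028494, ENSMUSG00000000957, ENSMUSG00000070348 and ENSMUSG00000004791). They were described as a transcript readout of a HIF-2α inhibitor in leukocytes of the mouse brain tumour GL261, a transplanted glioma line.

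All mice were wild-type females of 8 to 9 weeks per the labels, and carried GL261 tumours in the left hemisphere. The groups were PT2385 (a small-molecule inhibitor of HIF-2α, 10 mg/kg), the combination of PT2385 with ICB (immune checkpoint blockade, here by antibodies against both PD-1 and TIM-3), ICB alone, and untreated. Treatment began on day 7 and CD45+ DRAQ7- cells, that is living leukocytes, were sorted on day 21 and profiled by droplet single-cell RNA-seq. Each library pooled 5000 cells from each of 2 mice, and 2 libraries each of PT2385, combination and ICB and 1 untreated library were analysed. The protocols mention vehicle and isotype antibody, and do not say which of these the untreated mice received. PT2385 acts on a protein, so no transcript level here shows that it reached its target.

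The libraries held 4656 to 7446 kept cells, 38468 in all, with a median of 8088 to 11678.5 UMIs (unique transcript counts) per cell. Cells were sorted into classes by marker genes, and 7 classes had at least 30 cells in every library: macrophages (monocytes included, 15842 cells), microglia (7104), CD8 T cells (1535), conventional CD4 T cells (1417), NK cells (1399), conventional dendritic cells (cDC, 1098) and regulatory T cells (639). A further 3280 cells carried markers of more than 1 lineage and 2156 too few markers, and neither entered a class. ICB replicate 1 stood apart, with 6.58% of its macrophages in cycle against 1.02 to 2.05% in the other libraries. Macrophages made up 51.2 and 55.4% of the cells in the PT2385 libraries, 23.5 and 21.6% in the combination libraries, 27.4 and 49.1% in the ICB libraries and 54.0% in the untreated library. The libraries shared 360 of 41033 barcodes. Levels are given as CPM, the UMIs of a gene per 1000000 UMIs summed over a class in 1 library.

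HIF transcription factors pair an oxygen-regulated α subunit with a constant partner, ARNT, and bind DNA at hypoxia response elements whose core reads ACGTG or GCGTG. HIF-2α, encoded by Epas1, is best known in endothelial cells and in clear cell kidney cancer, and PT2385 blocks its pairing with ARNT. Of the members, Flt1 encodes VEGF receptor 1 and Pgf its ligand placental growth factor, Plin2 encodes perilipin 2, which coats lipid droplets, Mmp14 encodes a membrane-bound metalloproteinase that cleaves collagen and activates other proteases, and Ccnd1 encodes cyclin D1, which drives cells from G1 into DNA synthesis.

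The promoters are shown because the members are grouped by their tie to a DNA-binding factor whose core element can be looked up in them. RefSeq (GRCm38.p6, an earlier mouse build than that of the counts, GRCm39) gave the 250 bases before the start of 4 members, with 2 starts for Pgf, while Ccnd1 was not matched. Capitals mark ACGTG or GCGTG on either strand, which reads CACGT or CACGC where the match is on the reverse strand.
Flt1, chr5:147726012-147726261, minus strand: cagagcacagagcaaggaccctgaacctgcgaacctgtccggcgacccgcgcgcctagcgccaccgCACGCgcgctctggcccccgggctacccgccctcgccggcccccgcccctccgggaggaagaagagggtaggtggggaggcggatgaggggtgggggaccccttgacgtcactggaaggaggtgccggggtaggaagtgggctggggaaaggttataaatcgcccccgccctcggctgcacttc
Plin2, chr4:86670060-86670309, minus strand: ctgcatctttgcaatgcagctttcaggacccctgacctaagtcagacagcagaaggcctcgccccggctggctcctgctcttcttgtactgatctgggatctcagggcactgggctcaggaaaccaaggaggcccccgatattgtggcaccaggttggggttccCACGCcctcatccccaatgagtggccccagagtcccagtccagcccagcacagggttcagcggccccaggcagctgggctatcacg
Mmp14, chr14:54431348-54431597, plus strand: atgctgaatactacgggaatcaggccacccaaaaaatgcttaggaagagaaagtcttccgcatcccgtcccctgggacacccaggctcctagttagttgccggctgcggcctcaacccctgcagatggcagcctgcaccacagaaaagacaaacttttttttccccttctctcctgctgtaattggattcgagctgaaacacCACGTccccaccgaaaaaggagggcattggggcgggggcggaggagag
Pgf, start 2, chr12:85177314-85177563, minus strand: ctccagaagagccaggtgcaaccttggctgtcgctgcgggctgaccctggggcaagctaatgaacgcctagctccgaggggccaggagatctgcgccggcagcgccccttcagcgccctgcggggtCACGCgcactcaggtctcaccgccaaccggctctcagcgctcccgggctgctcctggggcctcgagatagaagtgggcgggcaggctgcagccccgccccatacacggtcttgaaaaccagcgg
Each of these held 1 match, at 184 to 180, 86 to 82, 48 to 44 and 124 to 120 bases before the start in the order shown, and start 1 of Pgf held none. The same letters stood in 12679 of 32851 mouse promoter windows of this length (38.6%). A match of 5 letters describes the sequence and does not show binding.

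Epas1 itself was scarce in these leukocytes. In macrophages it measured 0.724 and 1.02 CPM in the PT2385 libraries, 0.975 and 0.95 CPM in the combination libraries, 1.17 and 1.28 CPM in the ICB libraries and 1.39 CPM in the untreated library. Microglia averaged 1.29 ± 0.784 CPM (SD, n = 7 libraries), CD4 T cells 7.81 ± 3.58 CPM and regulatory T cells 11.6 ± 6.02 CPM. The highest level was in 55 cells with endothelial markers that had passed the CD45 sort, at 648.5 CPM of their pooled UMIs, followed by 51 group 2 innate lymphoid cells at 139.5 CPM and 196 gamma-delta T cells at 51.6 CPM. Hif1a, which encodes the other main α subunit, averaged 515 ± 136 CPM in macrophages, where ICB replicate 1 was lowest at 238 CPM. Arnt averaged 104 ± 13.0 CPM there. None of the 3 genes passed the test for PT2385 in any class or library sum where it could be tested (edgeR quasi-likelihood test, adjusted p from 0.104 to 0.992).

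**Figure D1:**
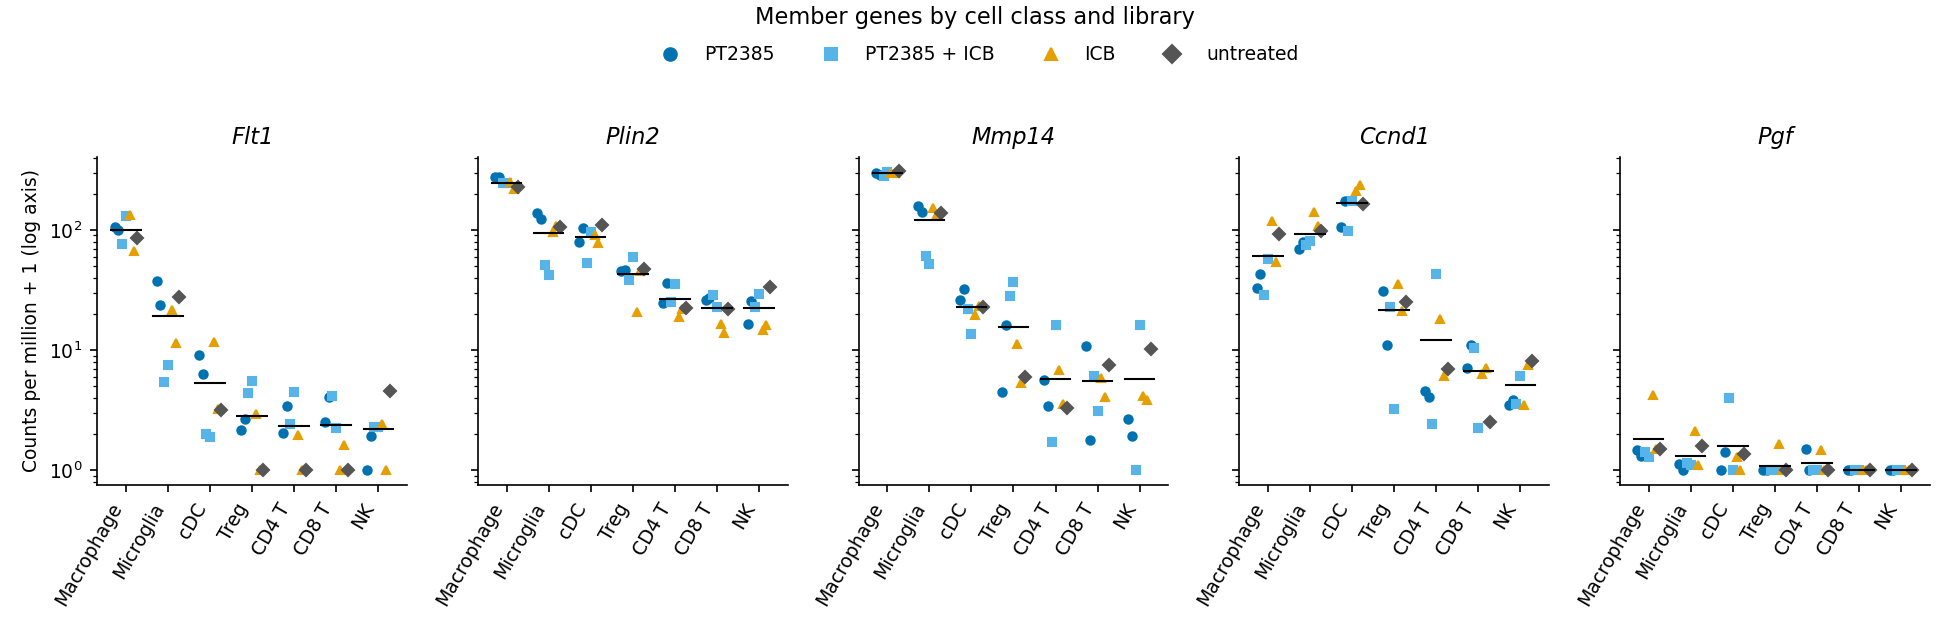
Level of each member in the 7 cell classes, as CPM plus 1 on a log axis. Each point is 1 of 7 libraries coloured by treatment group and each bar the mean of the 7. Flt1, Plin2 and Mmp14 were highest in macrophages, Ccnd1 in cDC, and Pgf lay near 0 in every class.

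Across cell classes, Flt1, Plin2 and Mmp14 followed the macrophages and Ccnd1 did not. Macrophages held 76.7% of all Flt1 UMIs, 70.9% of Plin2 UMIs and 72.1% of Mmp14 UMIs, but 38.2% of Ccnd1 UMIs. Neighbouring classes in the order of each gene's mean were compared within libraries by an exact sign-flip permutation test over the 7 libraries (two-sided, smallest possible p 0.01562, adjusted over 30 pairs). In 10 of the 30 pairs all 7 libraries pointed one way, which gave each of these an adjusted p of 0.04688. That value depends on how many of the 30 pairs reach the smallest possible p, so these calls pass or fail together.

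Flt1, the VEGF receptor, averaged 98.8 ± 25.7 CPM in macrophages (SD, n = 7 libraries), 18.2 ± 11.6 CPM in microglia, 4.32 ± 3.80 CPM in cDC and 1.21 to 1.81 CPM in the 4 lymphocyte classes. The steps from macrophages to microglia and from microglia to cDC held in 7 of 7 libraries (adjusted exact p = 0.04688 each), and the classes below cDC did not differ beyond their spread (adjusted exact p from 0.361 to 1). In cells thinned to 3000 UMIs each, with 793 shallower macrophages and 171 shallower CD8 T cells left out, a Flt1 UMI was seen in 22.4% of macrophages and in 0.293% of CD8 T cells. Without thinning the shares were 47.6% and 0.847%, at median depths of 11326.5 and 7427 UMIs.

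Plin2, the lipid droplet coat protein, averaged 247 ± 21.1 CPM in macrophages, 94.0 ± 35.6 CPM in microglia and 86.0 ± 18.9 CPM in cDC. Regulatory T cells followed with 42.3 ± 11.7 CPM, CD4 T cells with 25.4 ± 6.88 CPM, NK cells with 21.6 ± 7.24 CPM and CD8 T cells with 21.5 ± 5.59 CPM. Macrophages stood above microglia, cDC above regulatory T cells and regulatory above CD4 T cells in 7 of 7 libraries (adjusted exact p = 0.04688 each). Microglia and cDC did not differ beyond their spread, with microglia higher in 4 of 7 libraries.

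Mmp14, the membrane protease, averaged 294 ± 9.61 CPM in macrophages, 119 ± 44.2 CPM in microglia, 21.8 ± 5.71 CPM in cDC and 14.4 ± 12.6 CPM in regulatory T cells. The other lymphocytes averaged 4.58 to 4.78 CPM. Macrophages exceeded microglia, and microglia cDC, in 7 of 7 libraries (adjusted exact p = 0.04688 each). No lower step passed.

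Ccnd1, the G1 cyclin, had another order, with 165 ± 50.6 CPM in cDC, 91.7 ± 24.7 CPM in microglia and 60.0 ± 33.1 CPM in macrophages. Regulatory T cells followed with 20.3 ± 11.2 CPM, and the CD4 T, CD8 T and NK classes with 4.13 to 11.2 CPM. All 3 steps from cDC down to regulatory T cells held in 7 of 7 libraries (adjusted exact p = 0.04688 each). Counted instead as the share of thinned cells with a UMI, Ccnd1 was seen in 20.8% of cDC and 20.7% of microglia, against 11.7% of macrophages and 0.88% of CD8 T cells. Within cDC it separated subsets: type 1 cDC averaged 276 ± 64.1 CPM and migratory cDC 54.1 ± 38.2 CPM, higher in 7 of 7 libraries (adjusted exact p = 0.0322 over 35 subset comparisons, from 12 to 65 type 1 cells per library).

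Pgf, the ligand of VEGF receptor 1, was almost unmeasured. It gave 324 UMIs in all kept cells, 42.6% of them from macrophages and 23.8% from 79 cells with neural or glioma markers, which reached 33.1 CPM. That level rests on 1 library, since 34 cells of ICB replicate 1 gave 72 of these 77 UMIs. Over all kept cells this library gave 175 of the 324. No UMI was found in the 1535 CD8 T cells or the 1399 NK cells, which allows a share of up to 0.195% and 0.214% of cells with a UMI.

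Smaller populations, too thin for tests between groups, carried Flt1 or Ccnd1 at higher levels than any tested class. The 55 endothelial cells had 4171 CPM of Flt1, with a UMI in every cell. Flt1 was not among the 10 markers used to gate them. Plasmacytoid dendritic cells (260 cells) had 366 CPM of Ccnd1 and a UMI in 61.8% of thinned cells, from 292 to 592 CPM per library. Neural or glioma-marked cells had 261 CPM of Ccnd1, with 509 of their 607 Ccnd1 UMIs from ICB replicate 1. In 116 neutrophils Plin2 reached 178 CPM, below the macrophage mean.

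The genes whose levels ran closest to each member over 49 points (7 classes in each of 7 libraries, log2 of CPM plus 1, 6778 genes with a mean of at least 20 CPM) differed between members. For Flt1 these were Ms4a6c, Klra2 and Tgfbi (Pearson r 0.93 to 0.94), for Plin2 Npc2, Tnfaip2 and Mcl1 (0.95), for Mmp14 Tlr2, Cd68 and Cd300a (0.95) and for Ccnd1 Mctp1, Grk3 and Pak1 (0.93 to 0.94). For Pgf the best were Trim25, Dab2 and Gm21188 (0.58 to 0.60). Among the members, Flt1, Plin2 and Mmp14 correlated with each other at 0.88 to 0.89. Ccnd1 correlated with Flt1 at 0.54, with Mmp14 at 0.69 and with Plin2 at 0.72. Epas1 correlated with each of the 5 at -0.24 to -0.49. Points of 1 class share cells and points of 1 library share depth, so these are descriptions without a test.

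**Figure D2:**
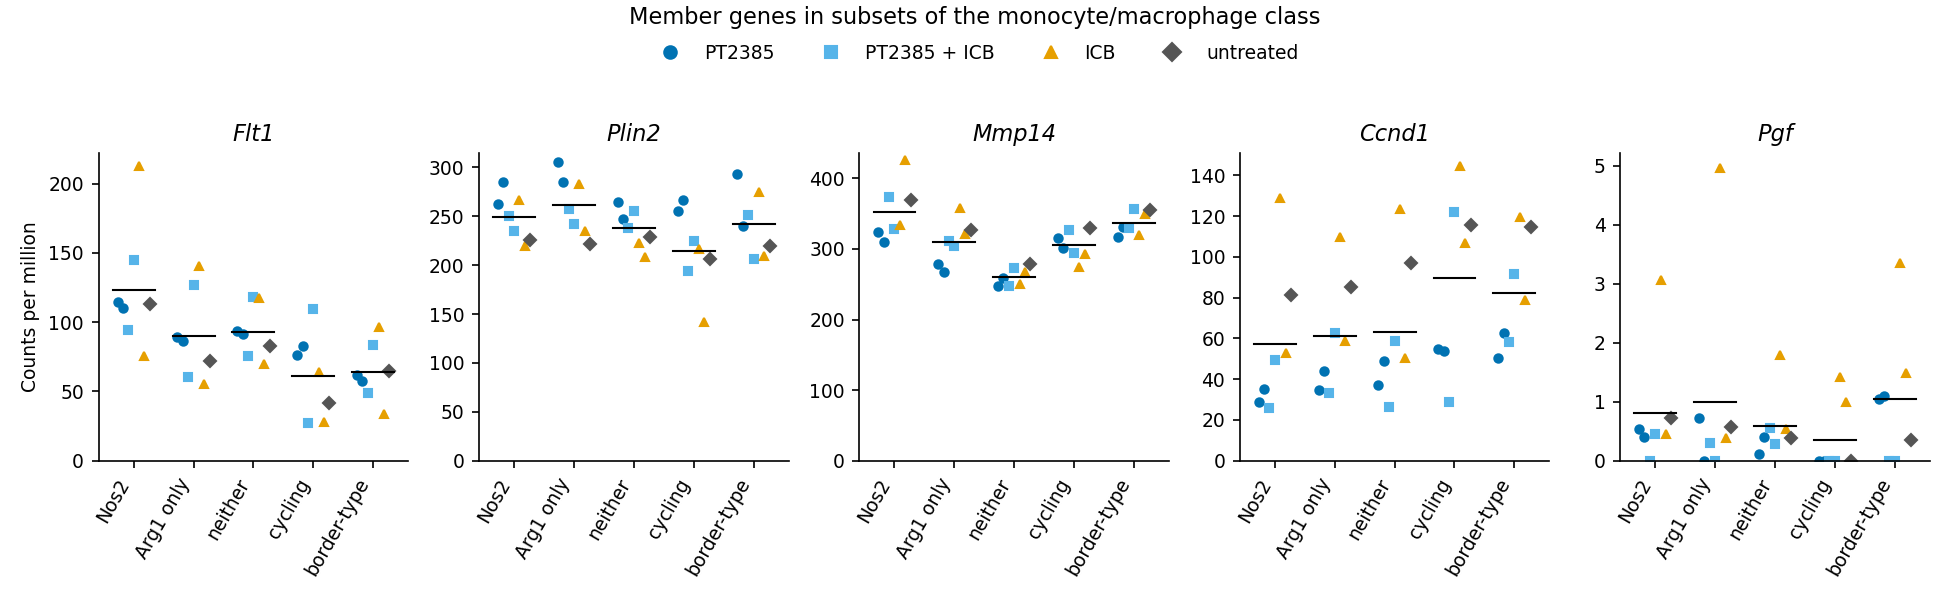
Level of each member in subsets of the macrophage class, in CPM. Each point is 1 of 7 libraries and each bar the mean of the 7. Flt1 was lowest in cycling and border-type cells and Ccnd1 highest there, and in each panel the libraries of 1 group spread over much of the range.

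Within macrophages, Flt1 was lower and Ccnd1 higher in the border-type and cycling subsets. Border-type macrophages (at least 3 of 8 markers such as Mrc1 and Pf4) averaged 63.9 ± 21.0 CPM of Flt1, against 103 ± 26.8 CPM in other macrophages, and were lower in 7 of 7 libraries. Their Ccnd1 averaged 82.4 ± 27.4 CPM, against 57.6 ± 33.6 CPM, and their Mmp14 337 ± 16.7 CPM, against 289 ± 9.93 CPM, both higher in 7 of 7. Cycling macrophages, as few as 21 in a library, had 61.4 ± 30.9 CPM of Flt1 and 89.6 ± 43.3 CPM of Ccnd1, against 101 ± 28.2 and 58.5 ± 31.9 CPM in macrophages not in cycle. Macrophages with Nos2, which makes nitric oxide, had 124 ± 44.6 CPM of Flt1, against 90.1 ± 32.5 CPM in macrophages with Arg1, which breaks down arginine, and no Nos2. Each of these differences had an adjusted exact p of 0.0322 (sign-flip test, two-sided, over 35 subset comparisons). Ccnd1 did not differ beyond its spread between the Nos2 and Arg1 states (57.5 ± 36.7 and 61.1 ± 28.1 CPM, adjusted exact p = 0.119).

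Whether the inhibitor changed the members was asked first with an additive model of PT2385 and ICB, which sets the 4 libraries with PT2385 against the 3 without. Of 35 pairs of member and class, 25 had enough UMIs to be tested. None passed an adjusted p of 0.05 (edgeR quasi-likelihood test, Benjamini-Hochberg over all genes of the class), 9 had an unadjusted p below 0.05, and DESeq2 called 1. In macrophages 0.367% of 15246 genes passed and in microglia 0.00713% of 14029. In CD8 T cells, regulatory T cells and cDC no gene passed, in CD4 T cells 0.047% and in NK cells 0.292%. A missed threshold with so few libraries does not show that a gene stayed the same.

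**Figure D3:**
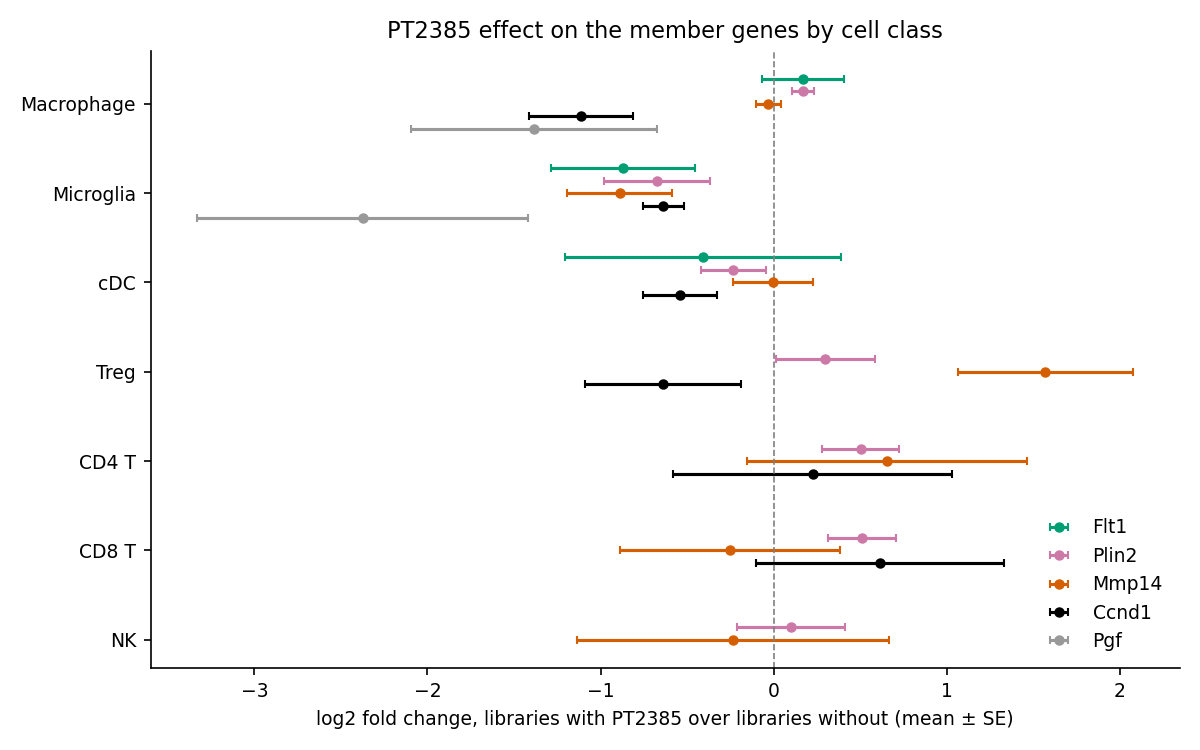
PT2385 effect on each tested member in 7 cell classes, as log2 fold change of libraries with PT2385 over libraries without, with its standard error. Ccnd1 lay at -1.11 in macrophages, -0.64 in microglia and -0.54 in cDC, and Plin2 at 0.50 to 0.51 in CD4 and CD8 T cells, and none of the points passed the adjusted threshold.

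Ccnd1 had the clearest pattern, lower on average in the libraries with PT2385 in the 3 myeloid classes, without passing the main test in any of them. In macrophages it measured 32.0 and 41.6 CPM in the PT2385 libraries and 27.5 and 55.8 CPM in the combination libraries, against 118 and 53.1 CPM in the ICB libraries and 91.6 CPM in the untreated library. The groups overlapped, because combination replicate 2 lay above ICB replicate 2. The means were 39.3 ± 12.5 CPM with PT2385 (SD, n = 4) and 87.5 ± 32.6 CPM without (n = 3), a log2 fold change of -1.11 ± 0.30 (SE, adjusted p = 0.108). It passed only when ICB replicate 2 was left out (-1.36, adjusted p = 0.0276), with -0.90 to -1.44 over all alternatives.

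All 3 macrophage states had the same direction. In the Nos2 state the libraries with PT2385 measured 28.8 and 35.1 CPM (PT2385) and 25.8 and 49.3 CPM (combination), and lay below 129 and 53.1 CPM (ICB) and 81.5 CPM (untreated). The groups did not overlap there, as was so in this direction for 6.56% of genes tested in that state. The log2 fold change was -1.21 ± 0.25 in the Nos2 state (adjusted p = 0.0742, where 0.715% of genes passed), -0.93 ± 0.25 in the Arg1 state (0.144, 0.0804% of genes) and -1.09 ± 0.33 in cells with neither (0.139, 0.865% of genes). DESeq2 gave adjusted p-values of 0.00418, 0.00811 and 0.171 in the same order, and without ICB replicate 2 edgeR gave 0.0169, 0.0188 and 0.0324.

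The mix of macrophages moved with treatment. Nos2 cells made up 50 and 42.2% of macrophages in the PT2385 libraries and 11.9 and 33.7% in the combination libraries, against 4.56 and 5.34% with ICB and 14.3% untreated. The summed level of 8 border-type markers was 201 to 260 CPM in the 4 libraries with PT2385 and 301 to 669 CPM in the 3 without, with no marker at 0 in every library. Of the 8, 3 were lower in every library with PT2385. F13a1, most of the sum with PT2385 at 154 to 182 CPM, did not fall, at 143 to 177 CPM without. The 11 cycling markers summed to 50.8 to 80.3 CPM with PT2385 and to 371, 68.6 and 54.7 CPM without. With border-type cells taken out, Ccnd1 differed by -1.16 on the log2 scale of CPM plus 1, and with cycling cells taken out by -1.10, against -1.11 in all macrophages (exact permutation p = 0.0857 each, none passing and the groups overlapping, two-sided, 4 against 3 libraries, smallest possible 0.02857).

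In microglia, Ccnd1 did not overlap between the groups. It measured 68.1 and 78.4 CPM in the PT2385 libraries and 73.7 and 79.4 CPM in the combination libraries, against 139 and 107 CPM in the ICB libraries and 97.1 CPM in the untreated library. In this direction 2.11% of microglial genes did not overlap. The summed border-type markers in the same gate did not overlap either, at 73.4, 59.96, 54.95 and 69.02 CPM in the 4 libraries with PT2385, against 262, 186 and 173 CPM in the 3 without, and 4 of the 8 were lower in every library with PT2385. Their part in the Ccnd1 values was not tested. The log2 fold change was -0.64 ± 0.12 (adjusted p = 0.237). It passed with DESeq2 (adjusted p = 0.00204), with no filter on low counts (0.00713) and as the average of both simple effects in a model with 1 mean per group (-0.59, 0.0292), where 1.38% of genes passed. Ccnd1 also passed without the untreated library (0.0061), but that fit amounts to the combination against ICB. With all libraries 12.4% of genes passed that contrast, which is given below. In microglia with at least 9 of 12 microglial and at most 2 of 14 monocyte/macrophage markers the groups overlapped, with 58.9 to 80.7 CPM with PT2385, against 68.6 to 120.4 CPM without (-0.44, adjusted p = 0.82).

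In cDC, Ccnd1 measured 106 and 172 CPM in the PT2385 libraries and 96.1 and 174 CPM in the combination libraries, against 208 and 236 CPM with ICB and 164 CPM untreated (-0.54 ± 0.21, adjusted p = 0.916, and 0.026 with no filter on low counts). Replicate 2 of PT2385 and of the combination lay above the untreated library. The log2 fold change ran from -0.72 to 0.04 over all alternatives. Type 1 cDC, with too few cells for the fit, had 198 and 283 CPM (PT2385) and 211 and 229 CPM (combination), against 364 and 314 CPM (ICB) and 330.0 CPM (untreated). Plasmacytoid dendritic cells did not follow, with 331 to 583 CPM in the 4 libraries with PT2385 and 292 to 592 CPM in the 3 without.

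**Figure D4:**
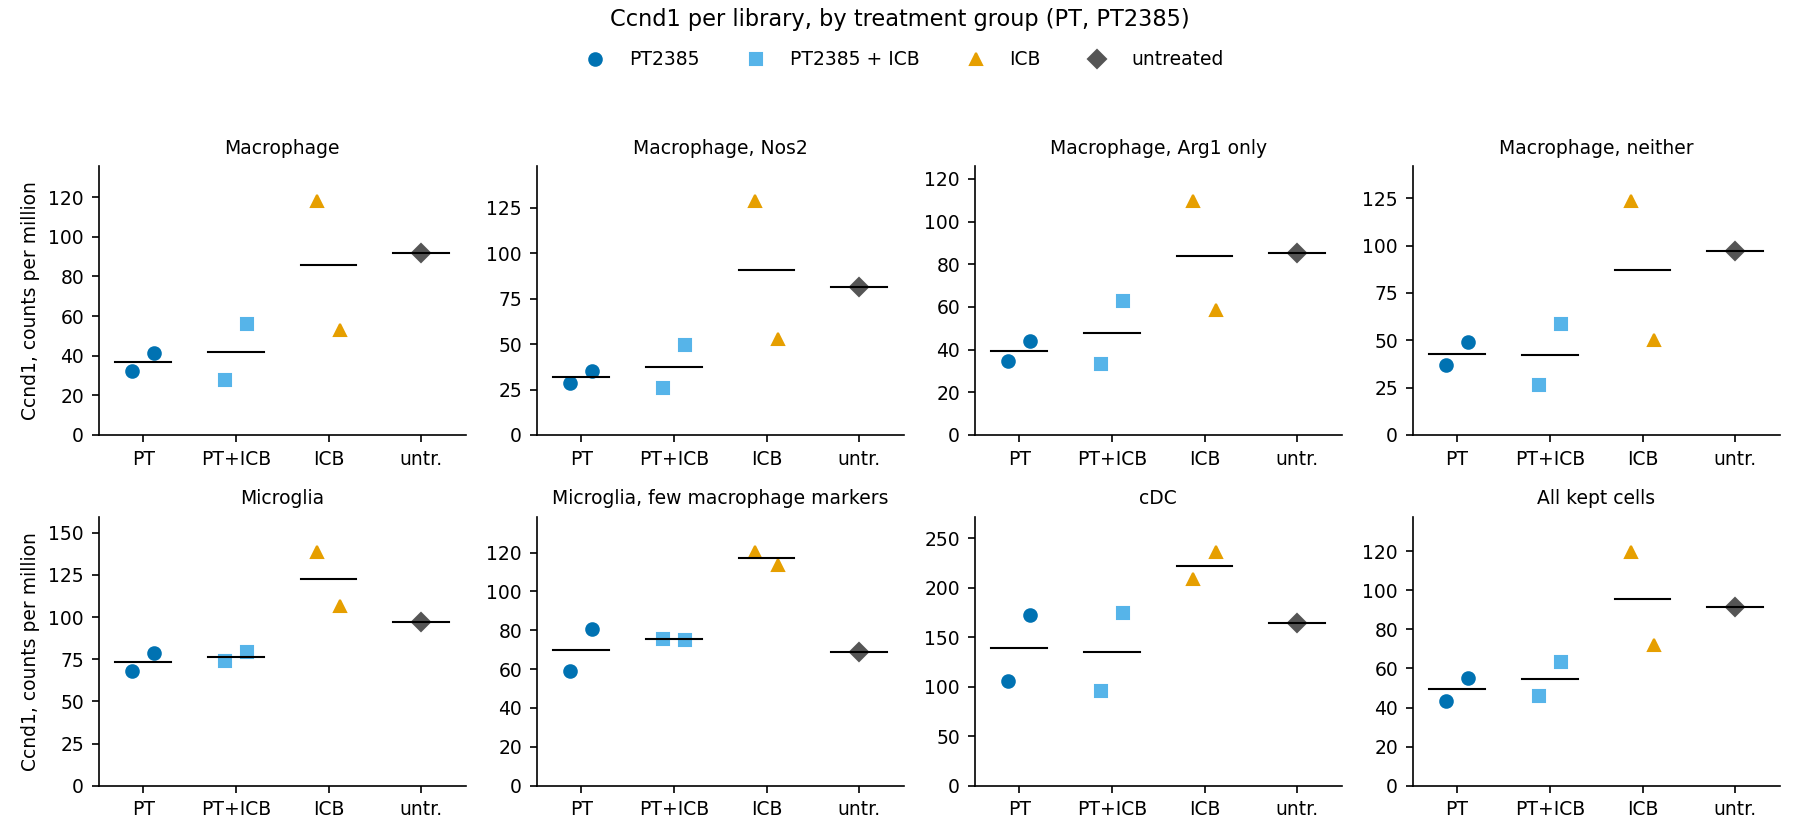
Ccnd1 per library in CPM, in macrophages and their 3 states (upper row) and in microglia, microglia with few macrophage markers, cDC and all kept cells (lower row). Points are libraries and bars group means. The 4 libraries with PT2385 lay below the other 3 without overlap in the Nos2 state, in microglia and in all kept cells.

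Neither Flt1, Mmp14 nor Plin2 passed for PT2385 in macrophages or their states. Flt1 measured 104 and 98.9 CPM in the PT2385 libraries and 74.9 and 130.4 CPM in the combination libraries, against 132 and 65.9 CPM with ICB and 85.2 CPM untreated (0.17 ± 0.24, adjusted p = 0.729). The ICB pair alone spanned the whole range. Mmp14 was tight, at 296 and 284 CPM (PT2385) and 279 and 301 CPM (combination), against 299.6 and 294 CPM (ICB) and 306 CPM (untreated), a difference of -0.03 ± 0.07 (adjusted p = 0.836). Plin2 measured 273 and 273 CPM with PT2385 and 244 and 245 CPM with the combination, against 250.03 and 217 CPM with ICB and 226 CPM untreated (0.17 ± 0.06, adjusted p = 0.19). Pgf stayed at 0.297 to 0.483 CPM in the 4 libraries with PT2385 and at 3.19, 0.487 and 0.488 CPM in the 3 without (-1.38 ± 0.71, adjusted p = 0.319). The groups of Pgf did not overlap, as in 9.48% of macrophage genes in this direction, but all except ICB replicate 1 lay within a fraction of 1 CPM. In the Arg1 state Mmp14 measured 279 and 267 CPM (PT2385) and 311 and 304 CPM (combination), against 358 and 321 CPM (ICB) and 327 CPM (untreated). These did not overlap, as in 7.63% of genes there, with a log2 fold change of -0.18 ± 0.08 (adjusted p = 0.325). In macrophages with neither Nos2 nor Arg1, Plin2 measured 265 and 247 CPM (PT2385) and 238 and 255 CPM (combination), against 222 and 208 CPM (ICB) and 229 CPM (untreated), without overlap, as in 9.99% of genes in the higher direction (0.18 ± 0.07, adjusted p = 0.227).

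In lymphocytes Plin2 had higher values with PT2385 in both CD8 and CD4 T cells, without passing. CD8 T cells had 25.1 and 26.2 CPM (PT2385) and 27.8 and 21.7 CPM (combination), against 15.5 and 12.8 CPM (ICB) and 21.1 CPM (untreated), a log2 fold change of 0.51 ± 0.20 (adjusted p = 0.715). CD4 T cells had 23.5 and 35.2 CPM and 24.0 and 34.8 CPM in the same groups with PT2385, against 17.8 and 21.1 CPM and 21.2 CPM without (0.50 ± 0.22, adjusted p = 0.661). Neither pair of groups overlapped, which in this direction was so for 4.77% of CD8 and 4.08% of CD4 T cell genes. Flt1, too thin to be fitted in these classes, was also higher with PT2385 without overlap, on 0 to 5 UMIs per library. In CD4 T cells the 12 microglial markers, too, summed higher without overlap, to 170, 205, 268 and 258 CPM with PT2385, against 120, 117 and 146 CPM without. The 14 monocyte/macrophage markers summed there to 2153 to 3064 CPM with PT2385 and to 2035 to 2555 CPM without, and their part in the Plin2 values was not tested. Mmp14 in regulatory T cells had 3.44 and 15.0 CPM (PT2385) and 27.3 and 35.9 CPM (combination), against 10.3 and 4.29 CPM (ICB) and 4.94 CPM (untreated), with 1.57 ± 0.51 and an adjusted p of 0.665 (0.0404 with no filter on low counts). These are 78 UMIs in 639 cells, and 3000-UMI thinning left a Mmp14 UMI in under 1% of CD4 and CD8 T cells. An exact permutation test over the same 35 pairs gave no adjusted p below 0.25. Its smallest possible unadjusted p is 0.02857, so a pair could pass only if many pairs reached that value together. The test therefore decides nothing here.

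PT2385 alone against the single untreated library called no member in any class (edgeR, 3 unadjusted p below 0.05 in 25 tests, 0 by DESeq2), with 0.0381% of genes called in CD8 T cells, 0.0356% in microglia, 0.0212% in regulatory T cells, 0.0104% in NK cells, 0.0094% in CD4 T cells and none in macrophages or cDC. The untreated library had no replicate, and this contrast assumes that it varies like the others. In the additive model, Flt1 (-0.87 ± 0.42, adjusted p = 0.447), Plin2 (-0.67 ± 0.31, 0.43) and Mmp14 (-0.89 ± 0.30, 0.34) all missed in microglia. Without the untreated library the ICB replicates were the sole libraries lacking PT2385, so the fit amounts to the combination against ICB. There these members reached adjusted p-values of 0.0265, 0.00258 and 0.00083. Of 18 alternatives to the additive fit, this one alone called Flt1 and Plin2 in the same direction, while 3 called Mmp14. Against the untreated library, Ccnd1 lay at -1.34 ± 0.48 in macrophages (adjusted p = 0.378) and -0.41 ± 0.15 in microglia (0.408).

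The combination against ICB, 2 libraries each, called 4 members in microglia and none in the other 6 classes, where 0.117% of genes passed in regulatory T cells, 0.0933% in cDC, 0.0522% in NK cells, 0.0381% in CD8 T cells, 0.0094% in CD4 T cells and none in macrophages. In microglia 12.4% of genes passed (9.79% lower), so a call there is common, and 22.5% lay lower in both combination libraries than in both ICB libraries. Mmp14 measured 59.7 and 51.4 CPM in the combination libraries, against 152 and 135 CPM in the ICB libraries (-1.47 ± 0.12, adjusted p = 0.0011). Plin2 measured 50.4 and 41.4 CPM, against 95.2 and 107 CPM (-1.25 ± 0.14, 0.00306), and Flt1 4.46 and 6.48 CPM, against 20.5 and 10.5 CPM (-1.57 ± 0.35, 0.0285), combination libraries first. Ccnd1 fell as well (-0.77 ± 0.12, 0.00721), with values given above. The cycling markers moved with it: 11 of 11 lay lower in both combination libraries, with sums of 107 and 102 CPM, than in both ICB libraries, with 318 and 249 CPM. So did 7 of 8 border-type markers, with sums of 54.95 and 69.02 CPM in the combination libraries, against 262 and 186 CPM in the ICB libraries. In the microglia of the PT2385 libraries the border-type markers also lay below the untreated library, at 73.4 and 59.96 against 173 CPM. So did Ccnd1, with values given above, while the cycling markers lay above it, at 240 and 276 against 59.7 CPM. Mmp14 and Plin2 did not share the fall there. These microglia had 157 and 139 CPM of Mmp14, against 138 CPM in the untreated library, and 137 and 122 CPM of Plin2, against 105 CPM. The interaction of PT2385 with ICB accordingly passed for Mmp14 (-1.57 ± 0.19, adjusted p = 0.0122) and Plin2 (-1.54 ± 0.23, 0.0191), among 4.48% of microglial genes, and no member passed in the other classes, where at most 0.0743% of genes did (regulatory T cells, with 0.0285% in CD8 T cells). Single libraries decided some of these calls. Without combination replicate 1 the adjusted p of Ccnd1 was 0.0509 and of Flt1 0.117, and Flt1 also missed without combination replicate 2 (0.0828) or ICB replicate 1 (0.105). The interaction of Mmp14 missed without PT2385 replicate 1 (0.0544), and that of Plin2 without PT2385 replicate 1 (0.0819), PT2385 replicate 2 (0.0519) or combination replicate 2 (0.0549).

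Macrophage markers differed between the libraries in the microglia gate, though not always along with these values. The 14 monocyte/macrophage markers summed to 5759 and 4342 CPM in the PT2385 libraries, 1613 and 1221 CPM in the combination libraries, 2534 and 5376 CPM in the ICB libraries and 5289 CPM in the untreated library. In both combination libraries 8 of the 14 lay below both ICB libraries, and none was at 0 in every library. Most of each sum was Lyz2. Within the ICB pair, the library with the higher sum had less Flt1 and Mmp14 and more Plin2. The core, with at least 9 of 12 microglial and at most 2 of 14 monocyte/macrophage markers, varied in share. It made up 31.2 and 39.8% of gated microglia (PT2385), 58.6 and 71.3% (combination), 54.97 and 46.98% (ICB) and 38.5% (untreated). Cells outside it have more macrophage markers or fewer microglial ones. Their median depth was 3207 and 3165 UMIs in the combination libraries, against 5505.5 and 10001 UMIs in the ICB libraries. Gated microglia outside this core carried more of 3 members in 7 of 7 libraries: 26.7 ± 13.9 CPM of Flt1, against 2.75 ± 0.761 CPM in the core, 129 ± 31.8 against 40.6 ± 16.1 CPM of Plin2, and 169 ± 57.8 against 36.5 ± 6.48 CPM of Mmp14 (adjusted exact p = 0.0322 each). Ccnd1 did not differ beyond its spread, at 96.2 ± 29.9 against 84.8 ± 23.2 CPM (0.241).

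Within the core, 10 of 11 cycling markers still lay lower in both combination than in both ICB libraries, and no member passed for the combination against ICB. Mmp14 measured 38.4 and 34.1 CPM in the combination libraries, against 30.6 and 38.1 CPM in the ICB libraries (0.07, adjusted p = 0.987), and Flt1 2.34 and 2.97 CPM, against 2.17 and 2.04 CPM (0.34, 0.964), so both turned direction. Plin2 lay at 26.1 and 24.9 CPM in the combination libraries, against 22.9 and 59.6 CPM in the ICB libraries (-0.68, 0.895). Ccnd1 kept its direction, with 75.7 and 75.3 CPM in the combination libraries, against 120.4 and 114 CPM in the ICB libraries (-0.64, 0.402). With Leiden clusters in place of gates none of the 4 passed either (adjusted p from 0.176 to 0.255, and from 0.177 to 0.263 with clusters from another random seed).

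**Figure D5:**
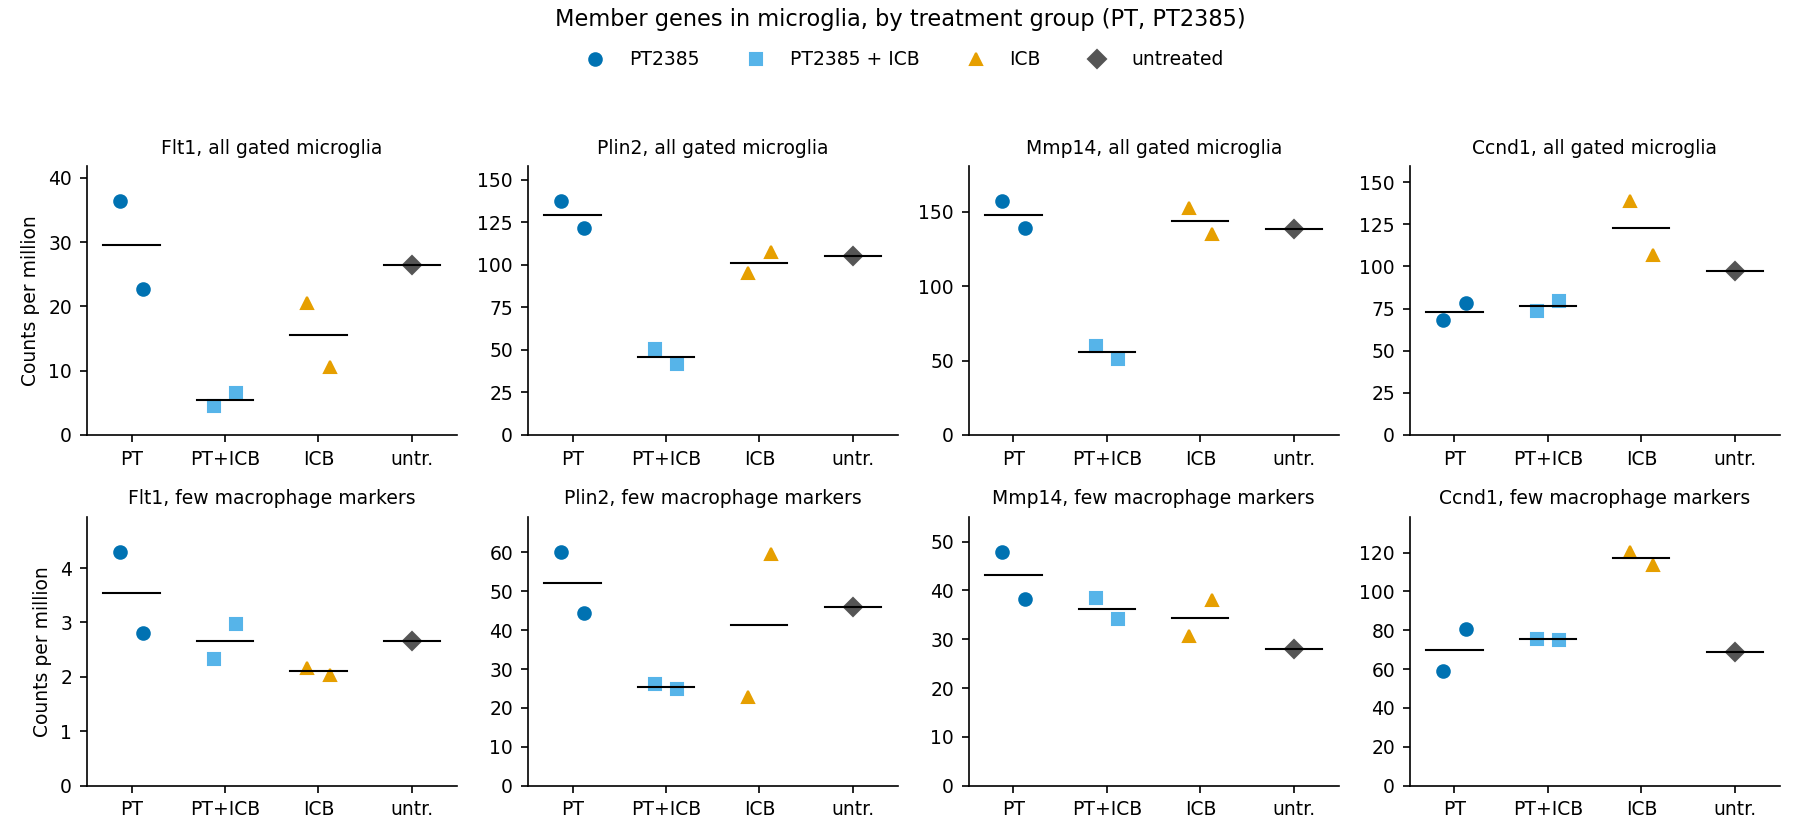
Flt1, Plin2, Mmp14 and Ccnd1 per library in all gated microglia (upper row) and in microglia with few macrophage markers (lower row), in CPM. Points are libraries and bars group means. In the upper row the combination libraries were lowest for Flt1 (4.46 and 6.48) and Mmp14 (59.7 and 51.4), and in the lower row they lay among or above the ICB libraries (2.34 and 2.97 for Flt1, 38.4 and 34.1 for Mmp14).

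ICB, as the other factor of the additive model, called no member in any class (edgeR, 4 of 25 unadjusted p below 0.05, 3 called by DESeq2), where 3.11% of microglial genes passed, 0.141% in CD4 T cells, 0.0318% in regulatory T cells, 0.0104% in NK cells, 0.00952% in CD8 T cells, 0.00933% in cDC and 0.00656% in macrophages.

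Summed over all kept cells of a library, where fewer cells of a type and less RNA per cell cannot be told apart, Ccnd1 measured 43.6 and 55.3 CPM (PT2385) and 46.0 and 63.4 CPM (combination), against 119.7 and 71.9 CPM (ICB) and 91.3 CPM (untreated). The groups did not overlap, as for 4.45% of genes in this direction, and the PT2385 effect was -0.89 ± 0.17 (adjusted p = 0.0628, among 0.791% called, and 9.17e-05 by DESeq2). With ICB, Flt1 fell (-0.92, adjusted p = 0.0355), as did Plin2 (-0.79, 0.0218) and Mmp14 (-0.70, 0.0271), among 19.2% of genes. Plin2 measured 115 and 111 CPM (combination) and 140.3 and 155 CPM (ICB), against 199 and 209 CPM (PT2385) and 173 CPM (untreated). All 3 calls were lost when any single PT2385 or combination library was left out, and that of Flt1 also without ICB replicate 2. The macrophage share of cells moved with these sums, as given above. Choroid plexus cells were another 8.4 and 14.0% of the combination libraries, against 1.5 and 3.65% with ICB, and made up 0.422 and 0.138% with PT2385. None was gated among 7446 untreated cells, which allows up to 0.0403%.

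Calls for PT2385 were also counted in lists of other genes around the pathway. Counts run over pairs of gene and class in the 7 classes, 3 macrophage states and library sums. These share cells, so the pairs are not independent. Of all genes tested, 0.664% were called lower in macrophages with neither Nos2 nor Arg1, 0.562% in the Nos2 state and 0.551% in library sums. The share was 0.251% in NK cells and at most 0.275% in the remaining classes. Of 21 other genes tied to HIF-2, 5 of 128 pairs fell and none rose. They concern 2 genes: Axl, a receptor kinase for dying cells, in the Nos2 state (-0.59, adjusted p = 0.0486), in macrophages with neither gene (-0.51, 0.0417) and in library sums (-0.77, 0.0475), and Cxcr4, the CXCL12 receptor, in NK cells (-0.78, 0.0406) and library sums (-0.64, 0.048).

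Axl in the Nos2 state measured 113 and 104 CPM (PT2385) and 139 and 136 CPM (combination), against 221 and 168 CPM (ICB) and 182 CPM (untreated). Cxcr4 in NK cells measured 84.6 and 67.6 CPM and 96.6 and 118 CPM in those groups with PT2385, against 159 and 210.2 CPM with ICB and 135 CPM untreated. The 4 libraries with PT2385 lay below the other 3 in both cases, as for 6.56% of genes tested in the Nos2 state. The share in NK cells is not given here. Both genes were named because they passed this comparison, so the order of the libraries is not a further test.

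No pair passed among 10 VEGF ligands and receptors (75 pairs) or 10 HIF subunits and oxygen sensors (90 pairs). Of 24 hypoxia and glycolysis genes 1 of 239 pairs fell, Ddit4, an inhibitor of mTOR signalling, in the Nos2 state (-0.83, adjusted p = 0.0126). Of 17 metalloproteinases and inhibitors 1 of 138 fell, the inhibitor Timp2 in the Nos2 state (-0.89, 0.0126). Of 19 lipid droplet genes 1 of 151 fell, Dgat1, an enzyme of triglyceride synthesis, in library sums (-0.50, 0.048).

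Of 16 G1 cyclins, kinases and inhibitors 1 of 165 fell, Ccnd2, which encodes cyclin D2, in the Nos2 state. It measured 15.2 and 16.6 CPM (PT2385) and 29.7 and 16.6 CPM (combination), against 90.9 and 49.4 CPM (ICB) and 39.9 CPM (untreated), a log2 fold change of -1.47 ± 0.21 (adjusted p = 0.0186). In that state 0.715% of genes passed in all. Median log2 fold changes of the 7 lists in macrophages ran from -0.15 to 0.24, against -0.002 over all genes tested there. These list calls all held with DESeq2 (adjusted p up to 0.00218) and with no filter on low counts (up to 0.0334). They also held with RLE size factors in place of TMM (up to 0.0474). They were not stable to the loss of a library. Each of the 9 was lost when certain single libraries were left out: Timp2 without combination replicate 2 or the untreated library, Ccnd2 and Ddit4 also without either PT2385 replicate, and Axl and Cxcr4 in every class named, and Dgat1, without any single PT2385 or combination library. Further losses came without ICB replicate 1 (all 3 calls in library sums), ICB replicate 2 (both Cxcr4 calls and Dgat1) and the untreated library (Axl in both macrophage states and Cxcr4 in NK cells). The highest adjusted p there was 0.326, for Axl in the Nos2 state.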

How the data were processed

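Each library was 1 pool of 2 mice, and p-values measure the spread between pools. The authors deposited raw UMI counts per gene and cell, made with Cell Ranger 7.0.0 per the file headers (2.2.0 per the submitters' processing notes, which also name GRCm39). The cell filter required 300 detected genes and no more than 10% of UMIs from mitochondria, which 40416 of 41033 barcodes met, and 1948 doublets were removed by Scrublet score (scanpy 1.11.5) at 0.8% per 1000 barcodes, since its automatic threshold marked 11. Cells were gated on 22 marker lists, and the gate's scoring was chosen after seeing the data. Counts were summed per library and class and fitted with edgeR 4.0.16 (TMM, filterByExpr, quasi-likelihood test, Benjamini-Hochberg over all genes of the class) in R 4.3.3, and DESeq2 1.42.0 was the alternative. The additive model of PT2385 and ICB used all 7 libraries, and the other contrasts used 1 mean per group. A standard error is the log2 fold change divided by the root of F. Fits were tested on simulated counts. Exact tests enumerated all arrangements with numpy 2.4.6 and were adjusted with statsmodels 0.14.6.

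The members and lists were chosen with earlier results of these data known. Text names all members, Epas1, Hif1a and Arnt, at most 3 passing genes per list and class, and the 3 genes closest to each member. The other untreated pool was not used here.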

Additional observations from a re-analysis of the deposited data

Results flagged for a closer look

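In gated microglia the PT2385 effect differed between mice with and without ICB for a pair of members, by the interaction term of edgeR's quasi-likelihood test. For Mmp14 the difference was -1.57 on the log2 scale (adjusted p = 0.0122), and for Plin2 it was -1.54 (adjusted p = 0.0191). In core microglia, with many microglial and few macrophage markers, the same terms were -0.53 (adjusted p = 0.755) and -0.84 (adjusted p = 0.778).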

How the results depend on the processing

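No paired analysis was possible because the pool numbers only follow the order of the samples and link no pools across groups. Of the alternatives, those on core microglia, on macrophages low in microglial markers and the clusters from another random seed were added after seeing the data. The count of members called for PT2385 in the 7 classes was 0, and became 1 with DESeq2, 4 without a low-count filter, 2 with 1 mean per group and 0 to 4 with 1 library left out. For ICB it was 0, and became 3 with DESeq2, 2 with doublets kept, 4 without a filter and 0 to 3 with 1 library left out. PT2385 alone against untreated stayed at 0 under every alternative run. The combination against ICB gave 4, and 0 with Leiden clusters, 7 without a filter, 0 in core microglia and 2 to 5 with 1 library left out. All genes called in microglia fell in number as well, from 1742 to 0 with Leiden clusters and 0 in the core. In the core, Flt1 (0.34) and Mmp14 (0.0733) reversed. The interaction gave 2, and 0 with Leiden clusters, 4 without a filter, 0 in the core and 0 to 2 with 1 library left out. In macrophage states the count for PT2385 was 0, and became 2 with DESeq2, 4 without a filter and 0 to 3 with 1 library left out. In library sums 3 members were called for ICB and none for PT2385, and 0 to 3 for both together with 1 library left out. The causes were not tested. Of the 30 steps between neighbouring classes 10 passed, and 0 with doublets kept, a stricter gate, thinned shares or 1 library left out (0 to 0). The clustering depends on its seed: Leiden clusters kept 10 passing steps and those from another seed 0, while the combination against ICB and the interaction gave 0 with both. Adjusted p-values where none passed were at least 0.05208, and with 6 libraries the exact test cannot go below an unadjusted 0.03125. Pgf gave 324 UMIs in all.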
